A study of Mus musculus with 4 samples.

Results

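The 10 genes of fatty acid synthesis described here are Acly, Acaca, Acacb, Fasn, Elovl6, Scd1, Me1, Gpam, Srebf1 and Mlxipl. They were taken from a fixed list, and all 10 were found among the 54464 genes of the deposited single-nucleus RNA-Seq (snRNA-Seq) count matrix. The data came from livers of 3 WT mice and 3 mice labelled HNKO, which carried floxed Nampt alleles (Nampt fl/fl) and Alb-Cre+/-, so that Cre was expressed from the albumin promoter, and hence in hepatocytes. The WT mice were littermates with floxed alleles and no Cre. All were female, were 8 to 12 weeks old when the diet began, and had been fed a purified control diet for 6 weeks. They came from a cohort of which a part also received nicotinamide riboside, and the paper mentions no such supplement for these mice. Mice of that cohort were anesthetized with isoflurane, and bile was collected through a bile duct catheter before they were killed. Nuclei of each mouse carried a hashtag of their own and were pooled before sequencing, so that each value below is a sum over the nuclei of 1 mouse and a cell type, with the type as named by the authors.

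Liver makes fatty acids from carbohydrate carbon. Citrate exported from mitochondria is split by Acly into acetyl-CoA, which Acaca and Acacb carboxylate to malonyl-CoA and Fasn builds into palmitate with NADPH that Me1, the cytosolic malic enzyme, helps to provide. Elovl6 lengthens palmitate, Scd1 places a double bond in the product, and Gpam attaches the first acyl chain to glycerol 3-phosphate on the way to triglyceride. The insulin-responsive factor Srebf1 (SREBP-1) and the glucose-responsive factor Mlxipl (ChREBP) are the main transcriptional activators of these enzymes. In the liver lobule, lipogenic gene expression has been described as zonated along the axis from the portal vein to the central vein.

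The upstream stretches of 4 members are shown because 7 members passed a test along that axis, given below, and Mlxipl, an activator of the others, did not pass it. Gpam and Scd1 did not pass it either. In the GRCm38 annotation Acly lies at chr11:100476353-100528000 on the minus strand, Acaca at chr11:84129672-84401651 on the plus strand, Fasn at chr11:120805846-120824547 on the minus strand and Mlxipl at chr5:135089890-135138382 on the plus strand, and all are protein coding. Each sequence holds the 250 bases before a RefSeq start site (GRCm38.p6), 5′ to 3′ on the gene's strand. Capitals mark matches, on either strand, to the E-box (CACGTG), the SRE core (TCACNCCAC) or the CCAAT box (CCAAT). The stretches are chr11:100528001-100528250 for Acly, chr11:84195188-84195437 for Acaca, chr11:120824548-120824797 for Fasn and chr5:135089640-135089889 for Mlxipl.
Acly: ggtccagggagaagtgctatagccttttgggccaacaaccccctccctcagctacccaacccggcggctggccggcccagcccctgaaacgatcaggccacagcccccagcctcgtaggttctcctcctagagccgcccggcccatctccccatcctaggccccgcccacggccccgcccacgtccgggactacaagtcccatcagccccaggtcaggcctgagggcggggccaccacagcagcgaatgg
Acaca: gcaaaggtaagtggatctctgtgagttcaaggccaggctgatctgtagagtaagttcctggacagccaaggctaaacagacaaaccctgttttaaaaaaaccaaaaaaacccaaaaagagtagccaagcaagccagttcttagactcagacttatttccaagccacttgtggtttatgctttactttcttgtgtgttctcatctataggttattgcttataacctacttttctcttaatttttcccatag
Fasn: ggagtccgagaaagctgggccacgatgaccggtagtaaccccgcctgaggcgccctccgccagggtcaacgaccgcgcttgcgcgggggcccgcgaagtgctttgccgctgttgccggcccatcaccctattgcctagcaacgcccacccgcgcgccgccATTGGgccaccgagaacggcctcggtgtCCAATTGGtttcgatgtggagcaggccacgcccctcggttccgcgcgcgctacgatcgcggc
Mlxipl: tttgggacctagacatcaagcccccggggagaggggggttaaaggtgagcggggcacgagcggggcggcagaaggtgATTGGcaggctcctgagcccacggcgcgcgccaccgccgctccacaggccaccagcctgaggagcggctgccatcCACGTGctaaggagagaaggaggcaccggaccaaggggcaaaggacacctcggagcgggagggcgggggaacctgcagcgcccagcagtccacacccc

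Fasn held 3 CCAAT matches, at -90, -62 and -59 from the start site, of which the last 2 overlap on opposite strands. The only match in the window of Acly was a CCAAT box at 38 bases after the start, outside the stretch printed, and the Acaca window, which lies inside the annotated gene, held no match to any of the motifs. Mlxipl held the only E-box among the members, at -98, beside a CCAAT box at -173. A second Mlxipl window, at chr5:135106641-135106940, held the only SRE core, at -136. RefSeq windows of 300 bases (250 before and 50 after a start site) were matched for 9 of the 10 members, 14 windows in all, and Scd1 had no entry. A CCAAT box was in 8 of the 14 windows and in 37.4% of all 32851 windows, an E-box in 1 of 14 and in 7.15% of all, and an SRE core in 1 of 14 and in 1.24% of all. These matches describe letters in these windows and not sites in use.

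The matrix held 5193 nuclei, of which 4410 were hepatocytes by the authors' names, 562 to 713 per WT mouse and 812 to 847 per mouse labelled HNKO. Hepatocyte sums held 3524497 to 6635290 unique molecular identifiers (UMIs), and the share of unspliced UMIs was 77.4% to 80.6%. Each member was well counted there, with 4501 UMIs for Srebf1 to 60303 for Acaca over the 6 mice. Because UMIs from introns were counted, the level of a long gene is raised, and levels are compared between mice and cell types but not between genes. Nampt, the targeted gene, had 84.8, 105 and 96.9 CPM (UMI counts scaled to a common library size) in hepatocytes of WT mice 1, 2 and 3 and 84.1, 148 and 90.8 CPM in mice 1, 2 and 3 labelled HNKO. The Nampt count, here scaled to raw totals, thus did not separate the genotypes. It is a count over the whole gene from 3′ chemistry, does not show which exons a transcript held, and so is no check of the labels. HNKO below means the mice so labelled.

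To describe the members along the lobule, hepatocyte nuclei of each mouse were ranked by a score of 8 pericentral markers (such as Glul and Cyp2e1) minus 9 periportal markers (such as Sds and Hal), none of them a member. The ranked nuclei of a mouse were split into 3 equal groups, and the outer groups, pericentral and periportal nuclei of 1468 each over 6 mice, were compared with mouse as a block. Of the 10 members, 7 were lower in pericentral nuclei, 0 were higher, and 3 did not pass the test (edgeR quasi-likelihood F test, FDR threshold 0.05 over all genes tested). Of 8630 genes tested, 8.68% were lower and 11.7% were higher in pericentral nuclei. The median log2 difference, pericentral minus periportal, was -0.55 over the members and -0.01 over all genes tested.

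Acly, the first enzyme of the route, differed most among the members. In periportal nuclei it was 728, 725 and 849 CPM in WT mice 1, 2 and 3 and 630 and 921 CPM in HNKO mice 1 and 2. In pericentral nuclei WT mice 1, 2 and 3 had 150, 121 and 343 CPM and HNKO mice 1, 2 and 3 had 143, 217 and 123 CPM. HNKO mouse 3 had the lowest periportal level, at 2.80 times its own pericentral level. The periportal level was higher in all 6 mice, by 2.47-fold to 6.01-fold, and the lowest periportal value lay just above the highest pericentral value. The log2 difference was -1.96 (SE 0.13, edgeR FDR 4.665e-09).

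Acaca, the cytosolic acetyl-CoA carboxylase, was 1793 to 3399 CPM in periportal and 685 to 1518 CPM in pericentral nuclei. The periportal excess was 2.20-fold to 2.92-fold in the 6 mice (log2 difference -1.33, SE 0.07, edgeR FDR 2.273e-10). Acacb, the isoenzyme at the mitochondrial outer membrane, had means of 273 ± 119 and 178 ± 52.3 CPM (SD, n = 6) in periportal and pericentral nuclei. It fell by 0.56 on the log2 scale (SE 0.11, edgeR FDR 8.854e-04), although in HNKO mouse 3 the groups were at 161.1 and 160.8 CPM.

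Fasn, the synthase itself, was 232 ± 93.5 CPM in periportal and 162 ± 72.8 CPM in pericentral nuclei (SD, n = 6). It was lower pericentrally in 6 of 6 mice (log2 difference -0.54, SE 0.09, edgeR FDR 3.386e-04). Because mice differed from each other by more than the groups did, their ranges overlapped, 141 to 356 CPM against 72.4 to 227 CPM, while the difference within each mouse had 1 sign. Me1 was lower pericentrally in 6 of 6 mice (log2 difference -0.74, SE 0.08, edgeR FDR 2.100e-06). So was the elongase Elovl6 (-0.61, SE 0.10, edgeR FDR 2.256e-04), with WT mouse 3 nearly level at 507 and 529 CPM. The activator Srebf1 differed least of those called (-0.33, SE 0.08, edgeR FDR 0.0063), with 136 ± 38.2 CPM in pericentral and 174 ± 56.5 CPM in periportal nuclei (SD, n = 6).

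**Figure D1:**
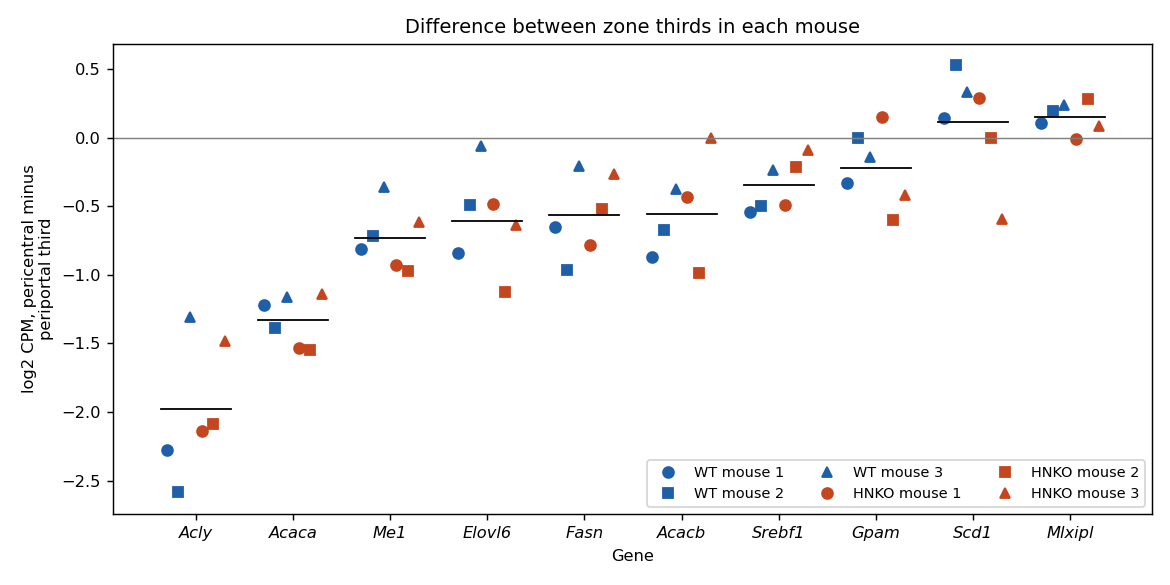
Log2 difference in CPM between pericentral and periportal hepatocyte nuclei (y axis) for each member (x axis). Points are mice, WT in blue and HNKO in red, and bars are means over the 6 mice; all 6 points of Acly lie between -2.59 and -1.31, whereas those of Scd1 lie on both sides of 0.

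Gpam, Mlxipl and Scd1 did not pass the test. Gpam had a log2 difference of -0.23 (SE 0.09, edgeR FDR 0.073) and was higher in pericentral nuclei of HNKO mouse 1. It passed the threshold without HNKO mouse 1 (-0.30, FDR 0.015), with 4 groups in place of 3 (-0.27, FDR 0.044) and without the filter on low counts (-0.24, FDR 0.0094). Mlxipl had a log2 difference of 0.15 (SE 0.06, edgeR FDR 0.093). The Scd1 levels in pericentral nuclei were 740, 382 and 723 CPM in WT mice 1, 2 and 3 and 550, 630 and 288 CPM in HNKO mice 1, 2 and 3. In periportal nuclei they were 669, 265 and 572 CPM and 449, 630 and 435 CPM. The log2 difference of Scd1 was 0.11 (SE 0.10, edgeR FDR 0.51), and without HNKO mouse 3, the only mouse with the opposite sign, it was 0.25 (FDR 0.024).

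The groups differed in depth as well. The median was 4216 to 6731 UMIs per nucleus in periportal and 3132 to 4810 UMIs in pericentral nuclei, with unspliced shares of 76.2% to 79.4% and 71.3% to 76.4%. When every hepatocyte nucleus was thinned to 1000 UMIs before ranking, 6 of the 7 calls stayed. The log2 difference of Acly was then -1.58, that of Acaca -1.25 and that of Elovl6 -0.87, and Srebf1 no longer passed (-0.16, FDR 0.49). Zonal genes left out of the score, chosen after the values were seen, had log2 differences of 2.41 for Cyp7a1, 1.13 for Rgn, -0.73 for Arg1 and 0.06 for Pck1, the last not past the threshold (edgeR FDR 0.65). The groups are ranges of a score and not cell types, and 433 of the 4410 nuclei lay within 0.05 score units of an edge. In the median pericentral nucleus, 11 UMIs came from pericentral and 5 from periportal markers, against 0 and 25 in the median periportal nucleus.

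When the same score was cut into 5 equal bins, the members could be followed between the ends. Acaca fell at every step from the periportal to the pericentral bin in 6 of 6 mice, with means of 2928, 2434, 1958, 1451 and 874 CPM. Acly fell at every step in 5 of 6 mice, from 713 ± 189 to 122 ± 69.6 CPM (SD, n = 6), a ratio of 5.85 between the end bins. The corresponding ratio was 2.09 for Me1, 1.87 for Acacb, 1.85 for Elovl6, 1.68 for Fasn and 1.39 for Srebf1. The mean of Scd1 was 615 ± 200 CPM in the middle bin and 485 ± 135 and 485 ± 125 CPM at the ends (SD, n = 6), but the middle bin was the highest in only 2 of 6 mice. Gpam had nearly the same mean in bins 2 and 3, at 762 ± 205 and 763 ± 136 CPM, and the lowest in the pericentral bin, at 550.03 ± 58.9 CPM (SD, n = 6).

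**Figure D2:**
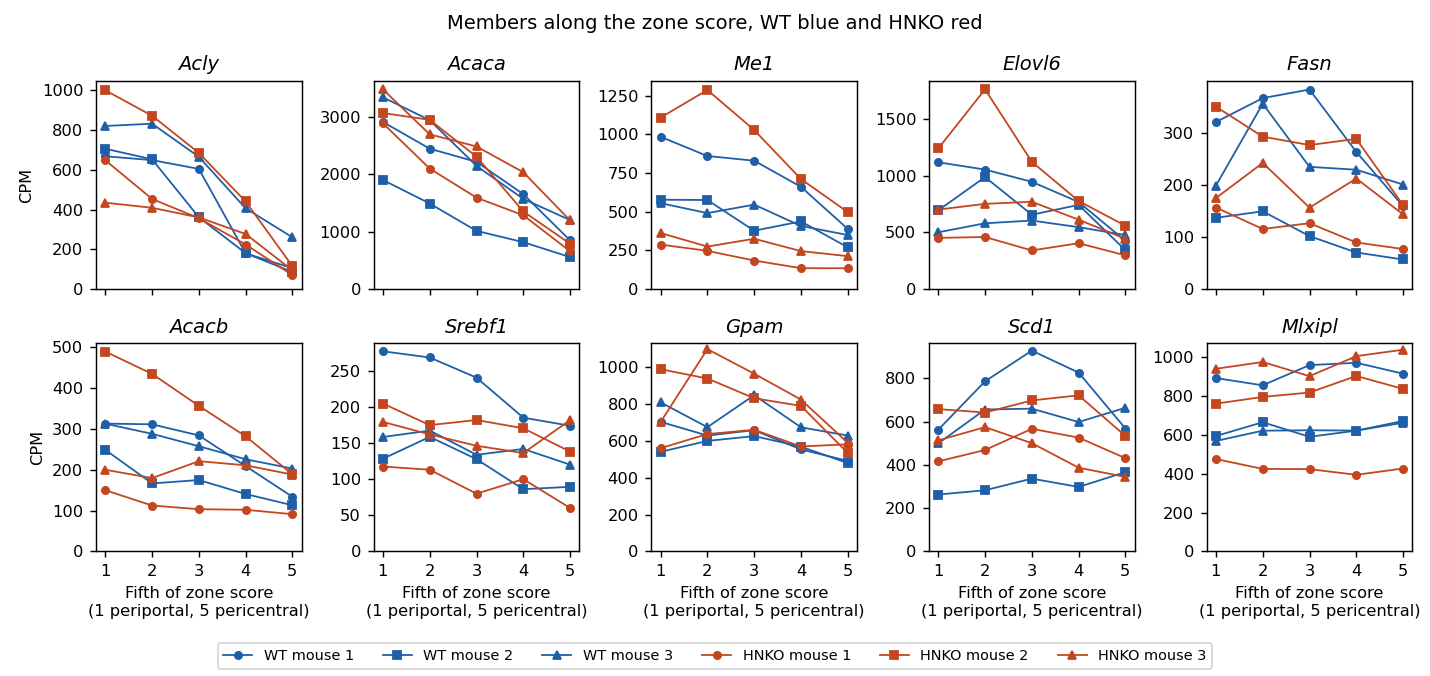
CPM of each member (y axis, from 0) in 5 equal groups of hepatocyte nuclei ordered by the zone score (x axis, 1 periportal to 5 pericentral), 1 line per mouse. Acaca descends at every step in 6 of 6 mice and Acly in 5 of 6, the highest bin of Scd1 differs between mice, and the means of Mlxipl lie between 704 and 758 CPM.

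Of 49 other genes of lipogenesis, 40 could be tested between the zone groups, of which 6 were higher and 7 lower in pericentral nuclei. Their median log2 difference was -0.02. Those with the smallest FDR were Ppargc1b, a coactivator of Srebf1 (-0.83), Pnpla3, a lipid droplet protein (-1.20), the phosphatidate phosphatase Lpin2 (0.64), the nuclear receptor Rxra (0.64) and Hacd3, a dehydratase of very long chain elongation (0.49; edgeR FDR 8.919e-05 or lower for all 5).

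The genotypes were then compared in whole hepatocyte sums. Of the 10 members 0 differed between WT and HNKO mice (edgeR FDR threshold 0.05; 0 at an unadjusted p under 0.05; 0 with DESeq2). The background was likewise 0% of 11810 genes called and 5.91% under an unadjusted p of 0.05. The log2 fold change, HNKO over WT, was negative for 8 of 10 members with a median of -0.19, against 0.02 over all genes. The smallest FDR was 0.84, for Srebf1. CPM of WT and HNKO mice overlapped for 10 of 10 members, while they did not overlap for 11.6% of all genes tested.

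The spread among mice of the same genotype was wide, and some orders of the mice recurred over the members. Me1 was 823, 475 and 509 CPM in WT mice 1, 2 and 3 and 221, 942 and 228 CPM in HNKO mice 1, 2 and 3. HNKO mouse 2 thus had the highest Me1 level of all 6 mice, at 4.14 times the next HNKO mouse, and the other HNKO mice lay below every WT mouse. The log2 fold change was -0.38 (SE 0.57, edgeR FDR 0.91), and -1.42 without HNKO mouse 2 (FDR 0.19). For Elovl6 too, HNKO mouse 2 was highest and HNKO mice 1 and 3 lay below every WT mouse, with 951, 717 and 575 CPM in WT mice 1, 2 and 3 and 430, 1113 and 523 CPM in HNKO mice 1, 2 and 3 (log2 fold change -0.12, SE 0.39, edgeR FDR 0.96).

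Fasn was 325, 109 and 256 CPM in WT mice 1, 2 and 3 and 125, 277 and 147 CPM in HNKO mice 1, 2 and 3 (log2 fold change -0.33, SE 0.44, edgeR FDR 0.89). Srebf1 was 252, 123 and 156 CPM and 104, 175 and 127 CPM in the same order (log2 fold change -0.38, SE 0.31, edgeR FDR 0.84). For both genes WT mouse 2 was among the low mice and HNKO mouse 2 among the high ones. Over the list, in TMM-scaled CPM, HNKO mouse 2 stood above both other HNKO mice for 10 of 10 members. WT mouse 1 stood above WT mouse 2 for 10 of 10. The share of all genes with either order was not counted, so neither is shown to be particular to the members. The paper reports that cells grouped strongly by donor mouse. On raw totals the order of the HNKO mice changed for some members. In the periportal end bin of the score, HNKO mice 2 and 3 had 760 and 939 CPM of Mlxipl. For Acaca they had 3064 and 3475 CPM there. The level of HNKO mouse 1 was among the lowest 2 of 6 for 9 members and that of WT mouse 2 for 6. For Me1, Elovl6, Acacb and Acly, HNKO mice 1 and 3 lay below every WT mouse in TMM-scaled CPM. This depended on the scaling for 2 of them. On raw totals of a score bin, Elovl6 was 700.5 CPM in HNKO mouse 3 and 500.4 CPM in WT mouse 3 (bin 1). Acacb was 179.4 CPM in HNKO mouse 3 and 166.3 CPM in WT mouse 2 (bin 2). The mice were set apart after the values were seen, and the share of all genes with this pattern was not counted. Without HNKO mouse 2 the log2 fold change was below 0 for 10 of 10 members, from -0.04 for Gpam to -1.42 for Me1, and 0 members were called. Leaving out the HNKO mouse already seen to be highest lowers each value. The shared sign thus adds nothing to the levels above, and the share of all genes below 0 was not counted.

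**Figure D3:**
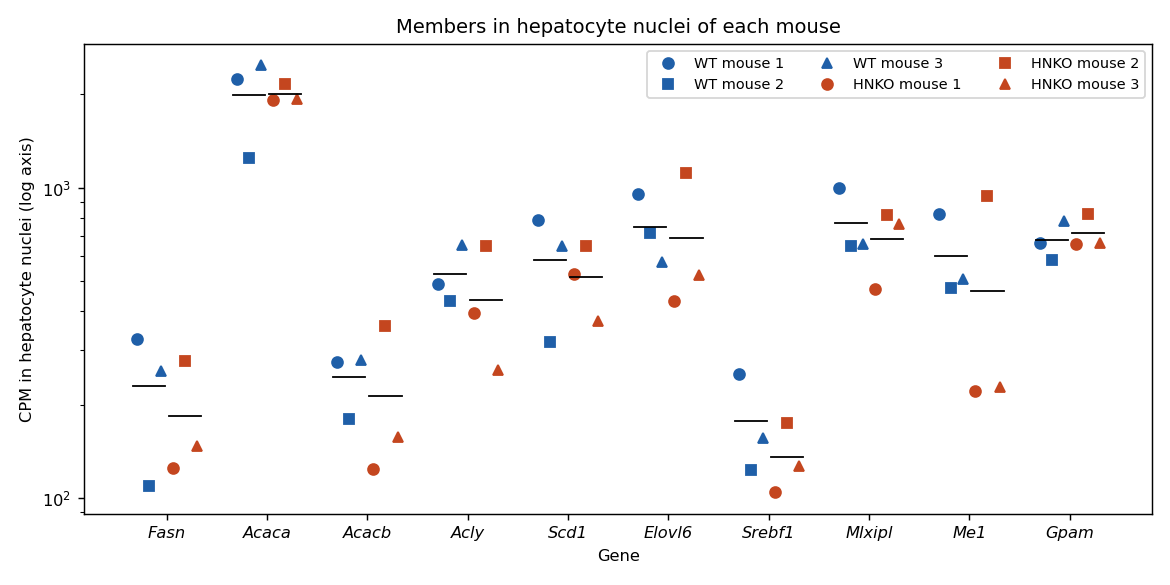
CPM of each member in hepatocyte nuclei (log axis), with 1 point per mouse and bars at the mean of the 3 WT (blue) and 3 HNKO (red) mice. The points of the genotypes overlap for every member. In these TMM-scaled values HNKO mouse 2 (red squares) lies above the other HNKO mice throughout, which does not hold for every member on raw totals.

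Acaca and Gpam varied least between genotypes. Acaca had means of 1987 ± 655 CPM in WT and 2000 ± 135 CPM in HNKO mice, and Gpam 677 ± 100.0 and 715 ± 95.1 CPM (SD, n = 3 each). The log2 fold changes were 0.01 (SE 0.32, edgeR FDR 1.00) and 0.08 (SE 0.22, edgeR FDR 0.95), and the first changed sign under DESeq2 (-0.002). With these SEs, differences smaller than about the spread between mice were not detectable. Acly (525 ± 116 and 433 ± 197 CPM), Acacb (244 ± 56.2 and 213 ± 127 CPM), Scd1 (584 ± 240 and 515 ± 139 CPM) and Mlxipl (768 ± 198 and 683 ± 184 CPM in WT and HNKO mice, SD, n = 3 each) lay between, with edgeR FDR of 0.89 to 0.94.

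Of the other lipogenesis genes, 45 of 49 were tested and 0 were called between genotypes (2 at an unadjusted p under 0.05). Those with the smallest p were Pgd, an NADPH-producing enzyme of the pentose phosphate pathway (log2 fold change 0.91), Srebf2, the activator of cholesterol synthesis (0.53), and Ppargc1b (-0.61), each with an edgeR FDR of 0.82.

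The difference between zone groups was also compared between genotypes. Of the members 0 showed an interaction of genotype with zone (edgeR FDR of 0.86 or higher, 1 member at an unadjusted p under 0.05), with 1 gene in 9620 called in the positive direction (0.0104%). The largest value was that of Scd1, where the pericentral minus periportal log2 difference was 0.34 ± 0.19 in WT and -0.10 ± 0.45 in HNKO mice (SD, n = 3 each; interaction -0.42, SE 0.18, edgeR FDR 0.86). For Acly these differences were -2.06 ± 0.67 and -1.90 ± 0.36, and for Acaca -1.26 ± 0.12 and -1.41 ± 0.23 (SD, n = 3 each). The interactions of the other members were -0.28 for Elovl6, -0.21 for Me1, -0.15 for Acaca, -0.13 for Gpam, -0.06 for Mlxipl, 0.05 for Fasn, 0.10 for Acly, 0.13 for Acacb and 0.17 for Srebf1. Of 43 other lipogenesis genes tested, 0 were called. Gpat3, which like Gpam acylates glycerol 3-phosphate, had the smallest FDR (-0.996, edgeR FDR 0.67), before the elongase Elovl2 (0.41, FDR 0.87) and the acyltransferase Agpat3 (0.33, FDR 0.89).

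The authors divided hepatocytes into 13 clusters, and levels in them are a description, since all genes were used to form them and 9 of the 13 held at least 94.8% of nuclei from 1 mouse. Acly ranged 19.3-fold, from 46.8 CPM in the cluster Central HNKO 1 to 901 CPM in Periportal 1. Me1 ranged 8.11-fold and Acaca 5.91-fold. For Fasn, Acaca, Acacb, Acly, Elovl6, Srebf1 and Me1 the highest of the 13 clusters was one of the 3 named Periportal. Scd1 was highest in Hepatocytes 2, at 1337 CPM against 299 to 705 CPM elsewhere. That cluster drew on several mice (31.6% from WT mouse 1) and was shallow, with 1002771 UMIs over 307 nuclei. Mlxipl was highest in Central HNKO 2, at 1197 CPM, and lowest in Central HNKO 1, at 398 CPM. These clusters hold 100% of nuclei from HNKO mouse 3 and 98.9% from HNKO mouse 1, so that cluster and mouse cannot be told apart.

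**Figure D4:**
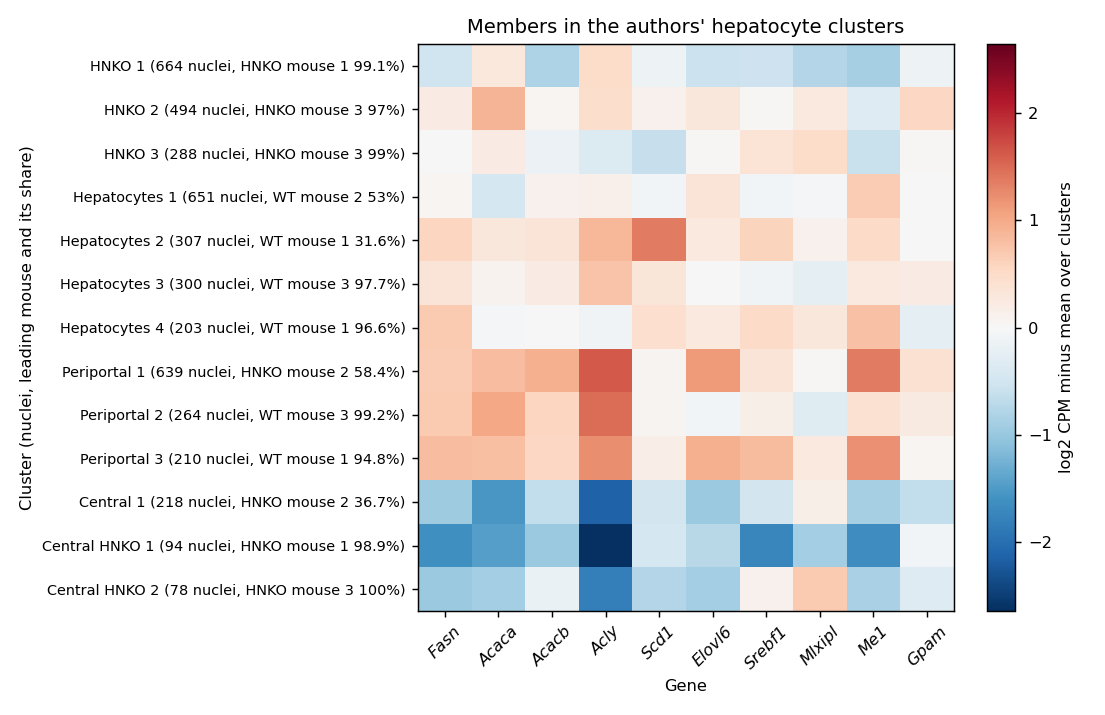
Log2 CPM of each member (columns) in the 13 hepatocyte clusters (rows, with nuclei and the leading mouse's share), minus the member's mean over clusters; red is above and blue below it. Acly, Acaca, Me1 and Fasn are red in the Periportal and blue in the Central clusters, and Scd1 is most red in Hepatocytes 2.

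Over the 13 clusters, which share mice and depth, 43 of the 45 pairs of members had a positive Pearson r of log2(CPM + 1), with a median of 0.66 and a range of -0.11 to 0.93. The share of positive pairs over all genes was not counted, so this is not shown to be particular to the members. The r of a member with the mean over all members was 0.98 for Fasn and 0.93 for Acly but 0.31 for Mlxipl. Each member is part of that mean, which raises its r, so these values cannot be set beside those of other genes. Among 11810 genes, those most like the members' mean included Cyp2a4, Hal, Tars and Ak4, with r of 0.94 to 0.95. Hal is also one of the periportal markers of the score.

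In other cell types, members were read against hepatocyte RNA carried in the same droplets, since free RNA gives UMIs in nuclei that do not express a gene. As a measure, the CPM of 7 hepatocyte markers (Alb, Apoa1, Apob, Cps1, Ttr, Fgb and Hnf4a) was given as a percentage of their hepatocyte level in the same mouse. In endothelial nuclei (245 in 6 mice) the median marker was at 19.6% to 33.2%, in stellate nuclei (171 in 6 mice) at 5.91% to 33.2%, in CD45+ nuclei (170 in 5 mice) at 34.1% to 58.4%, in Kupffer nuclei (64 in 3 mice) at 13.3% to 28.7% and in cholangiocyte nuclei (108 in 3 mice) at 9.44% to 22.8%. The last 2 types reached 10 nuclei only in HNKO mice. The types carried their own markers, for example 7510 to 11600 CPM of 5 endothelial markers in endothelial nuclei against 25.8 to 38.4 CPM in hepatocytes, and 5930 to 13600 CPM of 6 stellate markers in stellate nuclei against 32.9 to 195 CPM (summed over the list, range over mice).

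All 10 members were lower than in hepatocytes in each of the 5 types (edgeR, mouse as a block, FDR threshold 0.05). Of all genes tested, 30.2% were lower in endothelial, 26.7% in stellate, 22.6% in CD45+, 19.9% in Kupffer and 14.3% in cholangiocyte nuclei. In endothelial nuclei the log2 difference was -2.79 for Elovl6, -2.51 for Me1, -2.50 for Gpam, -2.49 for Fasn, -2.43 for Acaca, -2.34 for Acacb, -2.19 for Acly, -2.13 for Srebf1, -2.02 for Mlxipl and -1.11 for Scd1. In stellate nuclei it was -3.32 for Mlxipl, -3.27 for Acly, -3.23 for Elovl6, -3.04 for Fasn, -2.84 for Acacb, -2.47 for Gpam, -2.40 for Acaca, -2.26 for Srebf1, -1.98 for Me1 and -1.61 for Scd1. Scd1 thus lay nearest to its hepatocyte level in both types. In CD45+ nuclei the log2 difference was -2.13 for Me1, -1.70 for Acacb, -1.69 for Mlxipl, -1.64 for Acaca, -1.61 for Gpam, -1.51 for Acly, -1.35 for Elovl6, -1.19 for Fasn, -0.80 for Scd1 and -0.72 for Srebf1. In Kupffer nuclei it was -4.20 for Me1, -4.18 for Gpam, -3.77 for Acacb, -3.70 for Elovl6, -3.53 for Mlxipl, -3.46 for Acaca, -3.16 for Fasn, -2.93 for Acly, -2.12 for Srebf1 and -1.33 for Scd1, and in cholangiocyte nuclei -3.73 for Acacb, -2.95 for Acaca, -2.80 for Fasn, -2.76 for Elovl6, -2.64 for Acly, -2.46 for Mlxipl, -2.17 for Srebf1, -1.94 for Scd1, -1.93 for Me1 and -1.68 for Gpam. Scd1 was nearest to its hepatocyte level in Kupffer nuclei, Srebf1 in CD45+ nuclei and Gpam in cholangiocyte nuclei. Without HNKO mouse 1 only 5 members passed in cholangiocytes, and 8 of 10 did in CD45+ cells, where Scd1 and Srebf1 were lost. In CD45+ cells 9 of 10 passed with DESeq2 and with no mouse block, Srebf1 being lost in both (-0.64, DESeq2 FDR 0.069, and -0.76, edgeR FDR 0.097). Srebf1 was also lost in CD45+ cells without HNKO mouse 3, and Scd1 in Kupffer cells without HNKO mouse 1 or 2. Members above the median marker in every mouse numbered 1 in endothelial, 3 in stellate, 2 in CD45+, 2 in Kupffer and 3 in cholangiocyte nuclei. A member at or below the markers cannot be told apart from background. In endothelial nuclei, for example, Acaca was at 14.6% to 32.6% and Fasn at 19.3% to 27.4% of the hepatocyte level.

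Scd1 stood higher. In endothelial nuclei it was at 28.0%, 82.9% and 59.6% of the hepatocyte level in WT mice 1, 2 and 3 and at 52.7%, 53.4% and 94.0% in HNKO mice 1, 2 and 3, from 18 to 80 UMIs a mouse. It lay above the median marker in 6 of 6 mice and above every marker in 5, by 34.7 percentage points on average over the median (exact permutation test of signs over mice, two-sided, p = 0.03125, the smallest that 6 mice allow; adjusted p = 0.208 over 30 comparisons of 10 members in 3 types, chosen after the values were seen). With so high a smallest p, these tests could hardly pass after adjustment, and those with 5 mice could not. They decide nothing, and the positions given here are a description. In stellate nuclei Scd1 was at 20.6%, 46.3% and 23.1% in WT and 47.2%, 31.6% and 87.9% in HNKO mice 1, 2 and 3. There it was above every marker in 6 of 6 mice, on average 27.9 points over the median (exact p = 0.03125, adjusted p = 0.208). Me1 (18.6 points) and Gpam (7.35 points) were above the stellate median in 6 of 6 mice with the same p, and Acaca (9.52 points) and Srebf1 (9.19 points) in 5 of 6 (exact p = 0.0625, adjusted p = 0.208 for both). In CD45+ cells, Srebf1 was at 97.0% and 139% in WT mice 1 and 2 and at 53.9%, 106% and 64.5% in HNKO mice 1, 2 and 3, from 7 to 19 UMIs a mouse. It was above the median marker in 5 of 5 mice by 48.3 points (exact p = 0.0625, the smallest that 5 mice allow, adjusted p = 0.208). Scd1 was also above the CD45+ median in 5 of 5 mice, at 46.6% to 130% of the hepatocyte level and by 42.5 points on average (exact p = 0.0625, adjusted p = 0.208). With 3 mice each, the Kupffer and cholangiocyte sums were not tested. In Kupffer nuclei Scd1 was at 67.1%, 29.1% and 95.1% in HNKO mice 1, 2 and 3, above every marker in 3 of 3 mice and 44.1 points over the median, and Srebf1 was 17.0 points over it in 3 of 3 mice, from 11 UMIs. In cholangiocyte nuclei Gpam (24.9 points), Me1 (19.5 points) and Scd1 (17.6 points) were above the median in 3 of 3 mice and above every marker in 0. The highest marker was at 86.1%, 73.1% and 109% of the hepatocyte level there. Hnf4a was not called lower in cholangiocytes (log2 difference -1.02, edgeR FDR 0.0505), while the other markers were, at -1.90 to -4.71. Whether Hnf4a was carried over was not tested.

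**Figure D5:**
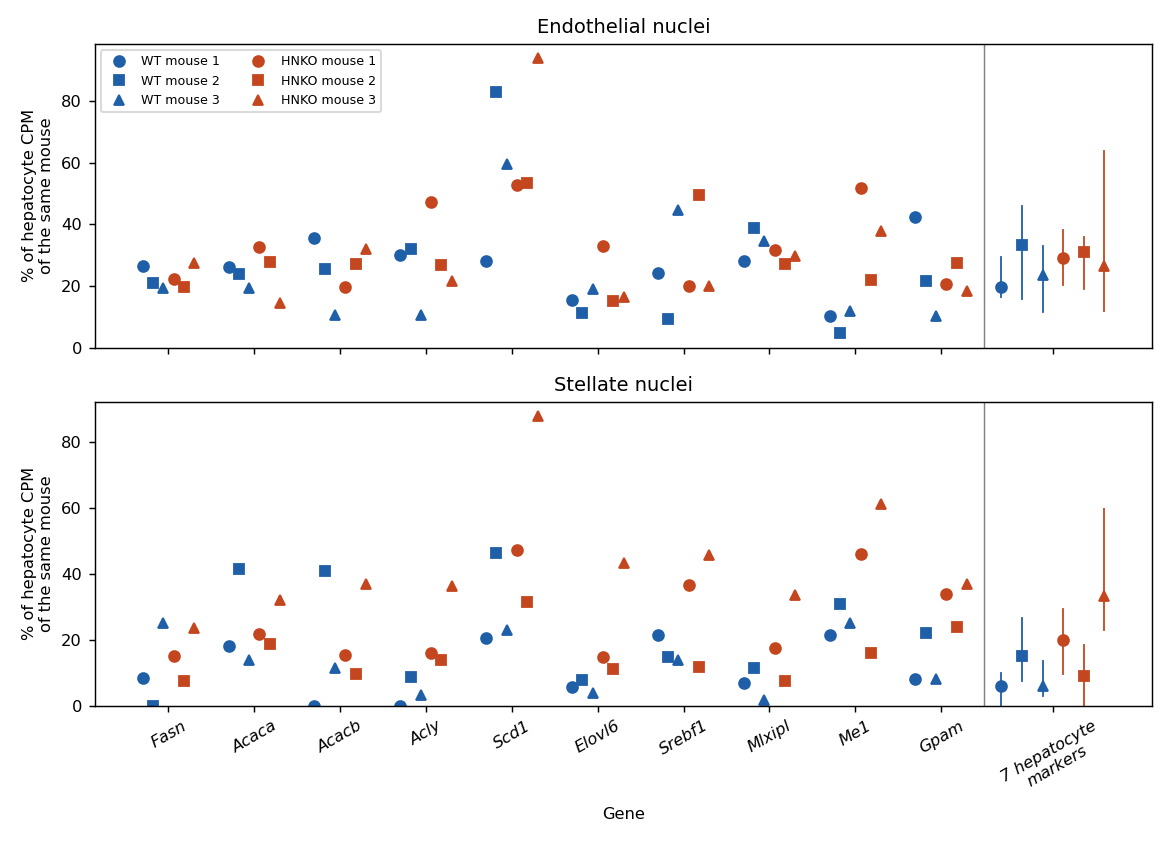
CPM of members in endothelial and stellate nuclei as a percentage of the hepatocyte CPM of the same mouse (y axis), 1 point per mouse (WT blue, HNKO red). At the right, points are the median and lines the range of the 7 hepatocyte markers in the same mouse; Scd1 lies above its mouse's median marker in all 6 mice in both panels.

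Other lipogenesis genes were lower than in hepatocytes as well. Those called lower numbered 33 of 42 tested in endothelial, 30 of 39 in stellate, 24 of 41 in CD45+, 22 of 45 in Kupffer and 26 of 43 in cholangiocyte nuclei. By smallest FDR, the leading genes in endothelial nuclei were Lpin2 (-2.36), the desaturase Fads2 (-2.59), Lpin1 (-2.33), Insig2 (-2.31) and the elongase Elovl5 (-2.48), and those in stellate nuclei included Lpin1 (-3.76), Elovl2 (-3.53), Lpin2 (-3.46) and Insig2 (-3.44). Fads2 led in CD45+ (-2.22) and cholangiocyte nuclei (-3.60). The few that were higher were Lpin3 in endothelial (2.87), Pgd in CD45+ (1.46), the liver X receptor Nr1h3 (2.31) and G6pdx (3.29) in Kupffer and Usf1 in cholangiocyte nuclei (1.46; edgeR FDR 0.035 or lower for all). Most of these were sparsely counted in hepatocytes. Over all mice, hepatocyte sums held 31 UMIs of G6pdx, 110 of Lpin3, 248 of Usf1 and 293 of Pgd, against 1212 of Nr1h3.

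Between genotypes within these types 0 members were called by edgeR or by DESeq2. In endothelial nuclei 7 members were tested, with 1 at an unadjusted p under 0.05, against 0% called and 3.79% unadjusted over all genes. In stellate nuclei 4 were tested, with 2 at an unadjusted p under 0.05, against 0% and 7.06%. In CD45+ nuclei 10 were tested, with 0 at an unadjusted p under 0.05, against 0% and 8.21%. The stellate genes were Gpam (log2 fold change 1.65, edgeR FDR 0.54), at 49.6, 124 and 60.1 CPM in WT and 203, 199 and 311 CPM in HNKO mice 1, 2 and 3, and Scd1 (0.94, edgeR FDR 0.67). The other stellate log2 fold changes were -0.03 for Me1 and 0.40 for Acaca. In endothelial nuclei they were -0.18 for Mlxipl, 0.15 for Gpam, 0.27 for Acaca, 0.31 for Scd1, 0.37 for Elovl6, 0.37 for Acly and 1.39 for Me1, of which that of Me1 had the p under 0.05 (edgeR FDR 1.00). In CD45+ nuclei they were -0.92 for Srebf1, -0.39 for Scd1, -0.21 for Mlxipl, -0.04 for Acacb, -0.02 for Gpam, 0.16 for Acly, 0.33 for Me1, 0.39 for Fasn, 0.56 for Acaca and 1.03 for Elovl6. Hepatocyte markers in the same stellate sums had a median of 5.91% to 15.2% of the hepatocyte level in WT and 8.86% to 33.2% in HNKO mice, and their part in these values was not tested. The count filter can be passed by a gene that is well counted in 1 genotype alone. WT mice 1, 2 and 3 had only 4, 7 and 6 UMIs of stellate Gpam and 7, 2 and 6 UMIs of endothelial Me1. These genes may thus have been tested only because HNKO mice were higher, and the counts of unadjusted p give no support. Of the other lipogenesis genes, 0 of 9, 4 and 16 tested in endothelial, stellate and CD45+ nuclei were called.

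The genotype effect was then compared between cell types of the same mice. Of the 10 members, 1 differed between endothelial cells and hepatocytes, and 0.0695% of 11517 genes were called in that direction. It was Me1. The endothelial Me1 level was 78.6, 22.1 and 55.5 CPM in WT mice 1, 2 and 3, from 7, 2 and 6 UMIs, and 104, 206 and 109 CPM in HNKO mice 1, 2 and 3, from 33, 38 and 17 UMIs. Every HNKO mouse was above every WT mouse, whereas in hepatocytes HNKO mice 1 and 3 were below them. The share of all endothelial genes whose groups do not overlap was not counted. The WT counts were small, and that of WT mouse 2 lay below the level of 3 counts (33.1 CPM). As a percentage of the hepatocyte level, Me1 was at 10.4%, 4.83% and 11.7% in WT mice and at 51.7%, 21.8% and 37.7% in HNKO mice. The log2 difference of the genotype effects, endothelial minus hepatocyte, was 2.11 (SE 0.44, edgeR FDR 0.0037). Without HNKO mouse 1 it was 1.85 (FDR 0.14), and with DESeq2 it was 2.05 (FDR 0.86). The hepatocyte marker Cps1 had a difference of 1.25 in the same fit (edgeR FDR 0.0081) and the other 6 markers had 0.05 to 0.82, none past the threshold. The part of carried-over hepatocyte RNA was not tested. The other members had differences of 0.06 for Mlxipl, 0.18 for Gpam, 0.24 for Fasn, 0.33 for Acaca, 0.37 for Srebf1, 0.44 for Acacb, 0.53 for Scd1, 0.68 for Elovl6 and 0.75 for Acly, none past the threshold (edgeR FDR 0.88 or higher).

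Between stellate cells and hepatocytes the genotype effect differed for 1 of 10 members, Acly, with 0.427% of 11473 genes called in that direction. Stellate sums of WT mice 1, 2 and 3 held 0, 2 and 2 Acly UMIs and those of HNKO mice 1, 2 and 3 held 10, 13 and 16. The levels were 0, 35.4 and 20.03 CPM in WT mice, where the count of 0 allows up to 37.2 CPM, and 57.9, 89.2 and 118 CPM in HNKO mice. The log2 difference of the genotype effects was 2.90 (SE 0.77, edgeR FDR 0.035), a fitted value that with so few WT counts depends on the prior count. The call was lost without any 1 of the other mice, with log2 differences of 2.23 to 3.45 and FDR of 0.073 to 0.64, and under DESeq2 (FDR 1.00). Only without HNKO mouse 2 did it stay, and then 3 members were called, Acly, Elovl6 (2.60) and Mlxipl (2.37). The interaction was positive for 10 of 10 members and also for 7 of 7 hepatocyte markers, whose log2 differences were 0.98 to 1.89, from Apob to Ttr, against a median of 0.37 over all genes. The other members had differences of 0.31 for Fasn, 0.45 for Acaca, 0.80 for Me1, 0.86 for Acacb, 1.08 for Srebf1, 1.25 for Scd1, 1.76 for Gpam, 1.92 for Mlxipl and 2.18 for Elovl6 (edgeR FDR 0.091 or higher). Whether members and markers move for the same reason was not tested. Of 44 other lipogenesis genes tested in each pair of types, 0 were called. The smallest p in endothelial cells were those of Gpat3 (8.29), Insig2 (0.91) and Scap (2.37), and in stellate cells those of Lpin2 (1.71), Thrsp (2.34) and Elovl5 (1.59; edgeR FDR 0.12 or higher for all). That of Gpat3 is a fitted value from endothelial sums of only 89035 to 317339 UMIs, and no size of effect is read from it.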

How the data were processed

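The authors hashed liver nuclei per mouse (4250 sorted from each, per the labels) and sequenced them as 2 RNA pools and 2 hashtag pools with 10x Genomics 3′ chemistry, version 3.1. They generated reads with Cell Ranger 5.0.1, mapped them with Alevin on GRCm38 and GENCODE M25, introns included, filtered nuclei in Seurat 4.0 and deposited estimated counts of UMIs per gene and nucleus, with the mouse, genotype and cluster of each nucleus. The deposited hashtag and corrected matrices were not used.

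Estimated counts were added up per mouse and type (10 nuclei or more) and rounded, since nuclei are not replicates. edgeR version 4.0.16 (R version 4.3.3) gave the tests, with filterByExpr, TMM scaling and two-sided quasi-likelihood F tests at FDR 0.05 by Benjamini-Hochberg over all genes tested. Genotype was the only term in comparisons between mice, and mouse was a block in comparisons within mice. CPM of members in hepatocytes and zone groups are TMM-scaled. Those of Nampt, summed marker lists, other types, clusters, score bins and percentages are of raw totals. DESeq2 version 1.42.0, DESeq2-like size factors in edgeR (RLE), no filter on low counts, thinning to 1000 UMIs, narrower zone groups and leaving out each mouse were alternatives. Alevin had split UMIs for 6.26% of nonzero Acaca values (over 0.001 from whole) and for 0% to 2.12% of those of other members. The tests were tried on simulated data, and no doublet caller was run.

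All 10 members are given in each comparison whose count filter they passed. Of 49 other lipogenesis genes, those named had the smallest FDR among genes past the threshold (at most 5) or, with none past it, the 3 smallest p. Some genes that these rules select are not reported here. The members and lists were chosen with earlier results of these data known. Limits of a count of 0 (3 counts) cover counting error only.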

Additional observations from a re-analysis of the deposited data

Results flagged for a closer look

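The genotype effect on Me1 differed between endothelial cells and hepatocytes by a test of the difference itself, with a log2 difference of 2.11 (edgeR FDR 0.0037; 0.0037 is the value with all mice and mouse as a block). The genotype effect on Acly differed between stellate cells and hepatocytes by the same kind of test, with a log2 difference of 2.90 (edgeR FDR 0.035) on 0, 2 and 2 UMIs in WT mice. No explanation was weighed for either.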

How the results depend on the processing

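The 7 zone calls of Acly, Acaca, Me1, Elovl6, Acacb, Fasn and Srebf1 kept their direction in every alternative run, and only that of Srebf1 lost its call, after thinning. The number of genes called between zone groups was 1763, against 1109 with DESeq2, 623 after thinning to 1000 UMIs and 1318 to 1731 without 1 mouse, and that of members was 7, with 7 to 8 without 1 mouse. Between genotypes in hepatocytes 0 members were called in every alternative. The number of all genes called, 0, became 21 with DESeq2, 35 with no filter on low counts and 0 to 32 without 1 mouse. In endothelial cells it became 1 and 16 with DESeq2 and with no filter, in stellate cells 1 and 29 (0 to 47 without 1 mouse) and in CD45+ cells 4 and 23 (0 to 10 without 1 mouse). Signs in hepatocytes turned for Acaca with DESeq2 (-0.002), with RLE size factors (-0.002), in pericentral nuclei alone (-0.131) and after thinning (-0.016), for Gpam in pericentral nuclei alone (-0.002), and for Scd1 (0.007) and Elovl6 (0.031) in periportal nuclei alone. Without 1 mouse the log2 fold change ranged from -0.751 to 0.002 for Fasn, -0.242 to 0.196 for Acaca, -0.797 to 0.075 for Acacb, -0.481 to 0.089 for Scd1, -0.647 to 0.131 for Elovl6, -0.312 to 0.060 for Mlxipl and -0.036 to 0.192 for Gpam, and it stayed below 0 for Acly, Srebf1 and Me1. The cause of these changes was not tested.

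In other cell types, the genotype effect changed sign for Me1 in stellate cells with no filter (0.016), and in CD45+ cells for Acacb with DESeq2 (0.003) and with no filter (0.250) and for Mlxipl (0.088) and Gpam (0.288) with no filter. Without 1 mouse it was -0.423 to 0.093 for Mlxipl and -0.212 to 0.765 for Gpam in endothelial cells and -0.019 to 0.600 for Acaca and -0.240 to 0.211 for Me1 in stellate cells. In CD45+ cells it was -0.469 to 0.851 for Acacb, -0.353 to 0.535 for Acly, -0.481 to 0.143 for Mlxipl and -0.438 to 0.658 for Gpam. Set against hepatocytes, the endothelial effect on Mlxipl turned with DESeq2 and with RLE size factors (-0.046 in both), and without 1 mouse it was -0.073 to 0.201 for Mlxipl, -0.149 to 0.930 for Srebf1 and -0.269 to 0.792 for Gpam. The stellate effect on Fasn was then -0.279 to 1.331. The genotype effect by zone, without 1 mouse, was -0.093 to 0.273 for Fasn, -0.116 to 0.422 for Acacb, -0.165 to 0.527 for Acly, -0.137 to 0.005 for Mlxipl and -0.351 to 0.027 for Gpam. None of these had passed the threshold.

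The genotype effect compared between endothelial cells and hepatocytes gave 13 genes, 2 with DESeq2, 0 with no mouse block and 5 to 32 without 1 mouse. The call of Me1 (1 member) went to 0 with DESeq2 and with no mouse block and to 0 to 1 without 1 mouse, with a log2 difference of 1.85 to 2.58. Between stellate cells and hepatocytes 62 genes were called, 0 with DESeq2, 36 with no filter, 0 with no mouse block and 0 to 175 without 1 mouse. Members called there went from 1 to 0 with DESeq2, RLE size factors, no filter and no mouse block and to 0 to 3 without 1 mouse. The genotype effect by zone was called for 1 gene, for 28 with no filter and for 0 to 9 without 1 mouse. Against hepatocytes, 1820 to 2884 genes were called in Kupffer cells and 945 to 2633 in cholangiocytes without 1 mouse, with 9 to 10 and 5 to 10 members. Where leaving out a mouse left few libraries, the remaining ones were assumed to vary alike.

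No paired analysis was possible because the hashtag names number each animal separately, so that WT and HNKO mice share no replicate number. The files do not tell which RNA pool a nucleus came from, and the fits with pool as a block or within a pool were not run. Depth limits the other cell types most, where sums held 36972 to 354726 UMIs and a member as few as 0 UMIs a mouse.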
